A study of Mus musculus with 12 samples.

Results

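The acyl-CoA thioesterases were taken as 8 genes, Acot1, Acot2, Acot3, Acot4, Acot7, Acot8, Acot12 and Acot13, out of 17742 genes measured in mouse liver. They were found by gene symbol or older synonym, and each gene's probe was chosen by its mean intensity over all arrays, the brightest being kept. That choice mattered for Acot7 alone, which had 2 probes, since the others had 1 probe each. The family itself was selected on earlier results of these data, the group differences of its members among them, so those differences are given as a description of these samples. Acyl-CoA thioesterases split acyl-CoA into a free fatty acid and coenzyme A (CoA), the opposite of what acyl-CoA synthetases do. They can thereby influence how much of the cell's CoA is tied up in fatty acyl groups, which was not measured here. They work in separate compartments (cytosol, mitochondria, peroxisomes), and several are known in liver to be induced during fasting and by the fatty acid receptor PPARalpha.

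The arrays were single-colour oligonucleotide arrays hybridised with Cy5-labelled liver RNA of mice given in the labels as 8 weeks old. The STZ+MENS mice had diabetes induced with STZ (streptozotocin, which kills insulin-producing beta cells) and received MENS, an abbreviation that the labels do not spell out. MENS was applied through a circuit board connected to a MENS device, in sessions of 1 h on 5 days of each week, over 6 weeks. The STZ mice had the same diabetes induction without MENS, and the Control mice had no treatment. Each group held 2 samples and each sample was run on 2 arrays, so n = 2 per group throughout. Strain, sex and genotype are not used here, and MENS was given in these groups only to STZ mice. Nothing in the labels says that each sample came from its own animal, so the spread behind every p-value is that of the deposited samples and may be technical. Intensities are the deposited linear probe intensities, and log2 values are of intensity plus 50. Arrays of a sample correlated at 0.986 to 0.996 across genes, samples of a group at 0.976 to 0.987 and groups at 0.957 to 0.985. Hepatocyte markers (7 of 10 listed were measured) summed to an intensity of 1925820 and 2081810 in the STZ+MENS samples, 2258020 and 2114550 in the STZ samples and 2498810 and 2417590 in the Control samples. The STZ+MENS samples stood apart from each other, with erythroid markers (2 of 5 measured, most of the sum Alas2) summing to 104836 in sample 1 and 9330 in sample 2. Those sums were 32621 and 55363 in the STZ samples and 79641 and 95699 in the Control samples.

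Acot1 to Acot4 were all higher in STZ livers than in Control livers and all lower in STZ+MENS livers than in STZ livers, on every array. By their brightest probes, Acot7, Acot8, Acot12 and Acot13 had log2 differences between -0.11 and 0.38 in the 3 comparisons. Of these genes only Acot7 had arrays that did not overlap, higher in STZ+MENS than in STZ, and only by its brighter probe. No member passed an adjusted p of 0.05 (limma's moderated test, Benjamini-Hochberg over all 17742 genes) in any comparison. That threshold called 0.00564% of genes (1 gene) in STZ against Control, 0% in STZ+MENS against STZ and 0.00564% (1 gene) in STZ+MENS against Control. A fit of STZ and Control alone, without the STZ+MENS samples, called 3 members, Acot1, Acot2 and Acot3, among 181 genes. Fits on the first or the second array of each sample alone called 0 members. Their adjusted p (limma) was 0.109 and 0.0747 for Acot1 and 0.1494 and 0.1198 for Acot2. For Acot3 it was 0.2698 and 0.2591, and for Acot4 0.2111 and 0.342. Without 1 STZ or Control sample, log2 differences ran from 2.213 to 2.596 for Acot1 and 1.53 to 1.892 for Acot2. They ran from 1.631 to 1.944 for Acot3 and 0.73 to 1.032 for Acot4, given without p since 1 sample was left in a group. With 2 samples against 2, exact permutation gives no p below 0.33, so member differences are given with their errors and the adjusted p of the fit.

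**Figure D1:**
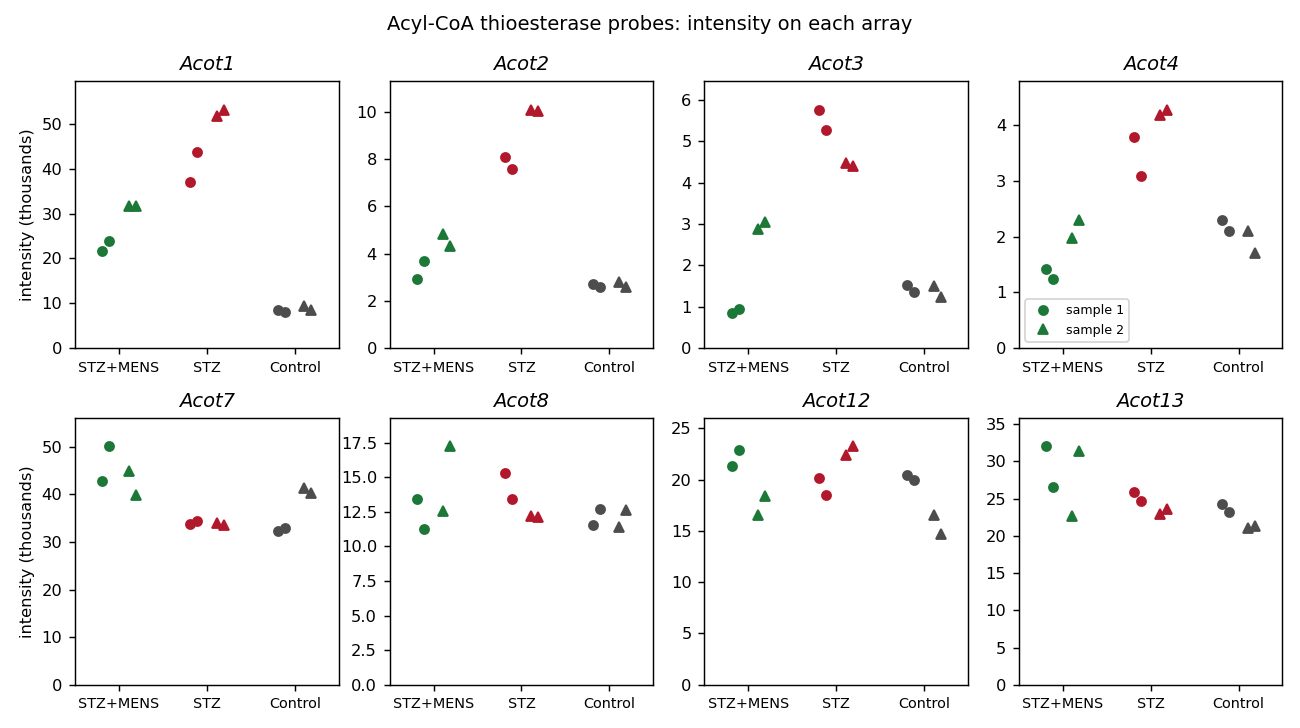
Intensity in units of 1000 (vertical axis, from 0) of each member's probe on all 12 arrays, by group along the horizontal axis; circles are the 2 arrays of sample 1 and triangles those of sample 2. For Acot1 to Acot4 all 4 STZ arrays lie above all Control arrays and above all STZ+MENS arrays, while Acot8, Acot12 and Acot13 overlap between the groups.

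Acot1, Acot2, Acot3 and Acot4 lie next to each other on chromosome 12 of the mouse, in the order Acot2, Acot1, Acot4, Acot3, followed by Acot5 and Acot6, with 0 other protein-coding genes between the first and the last. They arose as copies of one gene and their proteins are closely alike, so a probe for one may also bind another's RNA. The probe sequences were not used here, and cross-hybridisation within the cluster was not tested. The stretch of 250 bases upstream of each RefSeq start site (GRCm38.p6, plus strand, which is also the strand of the genes) is printed for these 4 genes because they are the members that differed together. The windows are chr12:83987611-83987860 for Acot2, chr12:84009252-84009501 for Acot1, chr12:84038129-84038378 for Acot4 and chr12:84051894-84052143 for Acot3. RefSeq gives Acot3 another start site whose window, chr12:84051901-84052150, overlaps the printed one and is not shown. Capitals mark matches to CCAAT, a common promoter box, and to AGGTCA, the half-site that nuclear receptors such as PPARalpha recognise, on either strand (ATTGG and TGACCT on the opposite one).
Acot2 promoter: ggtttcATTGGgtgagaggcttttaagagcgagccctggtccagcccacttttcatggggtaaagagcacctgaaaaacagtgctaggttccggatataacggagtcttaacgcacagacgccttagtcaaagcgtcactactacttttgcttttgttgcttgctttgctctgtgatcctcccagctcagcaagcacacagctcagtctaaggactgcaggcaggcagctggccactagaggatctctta
Acot1 promoter: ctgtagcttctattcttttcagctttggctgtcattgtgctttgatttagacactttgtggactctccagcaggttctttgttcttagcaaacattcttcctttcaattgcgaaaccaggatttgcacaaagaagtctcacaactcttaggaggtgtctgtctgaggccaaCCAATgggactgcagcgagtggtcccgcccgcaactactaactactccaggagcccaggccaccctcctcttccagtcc
Acot4 promoter: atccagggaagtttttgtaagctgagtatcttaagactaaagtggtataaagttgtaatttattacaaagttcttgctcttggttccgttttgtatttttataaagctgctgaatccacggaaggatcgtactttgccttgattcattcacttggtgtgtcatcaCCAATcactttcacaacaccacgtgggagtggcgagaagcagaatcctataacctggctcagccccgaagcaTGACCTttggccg
Acot3 promoter: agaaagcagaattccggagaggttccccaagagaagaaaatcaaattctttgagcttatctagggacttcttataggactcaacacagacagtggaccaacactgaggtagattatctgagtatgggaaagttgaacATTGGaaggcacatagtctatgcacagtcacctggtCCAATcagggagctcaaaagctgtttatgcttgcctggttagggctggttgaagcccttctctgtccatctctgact

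CCAAT was found in all 4 windows, at base -79 for Acot1, -244 for Acot2, -85 for Acot4, and -113 and -77 for Acot3, counted from the start site to the first base of the match. From the other start site of Acot3 the same matches lie at -120 and -84. It was in 33.9% of the 32851 windows of that length in the table. Among these 4 windows AGGTCA was found in that of Acot4 alone, at base -13 on the opposite strand, and it was in 14.0% of all windows. The tandem form, in which AGGNCA is repeated in the same direction with 1 base (N) between the repeats, was in none of the 4 windows and in 0.338% of all windows. The motifs do not overlap one another in these windows. Among the other members, Acot12 held AGGTCA (at base -110, opposite strand), Acot8 held 3 matches to CCAAT and Acot7 held none of these motifs. The windows of the cluster gene Acot5, not printed, held AGGTCA at -224 or -225 and CCAAT at -103 or -104, by start site, on the opposite strand. These letters describe the windows and show neither binding nor its absence.

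Acot1, the cytosolic enzyme for long-chain acyl-CoA, had mean intensities of 22781 and 31623 in the STZ+MENS samples, 40424 and 52533 in the STZ samples and 8301 and 9024 in the Control samples. The groups did not overlap on any array: every STZ array was above every STZ+MENS array, and every STZ+MENS array was above every Control array. On the log2 scale the group means were 14.71 ± 0.34 in STZ+MENS, 15.49 ± 0.27 in STZ and 13.09 ± 0.08 in Control (SD, n = 2). STZ exceeded Control by 2.40 ± 0.22 (SE), a 5.29-fold difference with a 95% interval of 1.87 to 2.93 on the log2 scale and an adjusted p of 0.0654 (limma). STZ+MENS was below STZ by a log2 difference of -0.78 ± 0.22 (SE, adjusted p = 0.105, limma). It was still 3.09-fold above Control, a log2 difference of 1.63 ± 0.22 (adjusted p = 0.111, limma).

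Acot2, the mitochondrial counterpart of Acot1, had mean intensities of 3306 and 4568 in the STZ+MENS samples, 7829 and 10072 in the STZ samples and 2651 and 2707 in the Control samples. All STZ arrays were above all others, and the STZ+MENS arrays lay close above the Control arrays without overlap, at 2923 or more against 2811 or less. The log2 difference of STZ from Control was 1.71 ± 0.21 (SE, 3.27-fold, adjusted p = 0.0674, limma). STZ+MENS differed from STZ by -1.19 ± 0.21 (2.28-fold lower, adjusted p = 0.0595, limma), with a 95% interval of -1.70 to -0.67. Against Control the STZ+MENS difference was 0.52 ± 0.21 (adjusted p = 0.271, limma).

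Acot3, a peroxisomal thioesterase for medium- and long-chain acyl-CoA in the mouse, had mean intensities of 894 and 2976 in the STZ+MENS samples, 5525 and 4433 in the STZ samples and 1435 and 1369 in the Control samples. The STZ samples were again highest, but the STZ+MENS samples lay on both sides of Control, one below and one above it. Their SD of 1.19 on the log2 scale compares with 0.22 in STZ and 0.05 in Control. STZ was above Control by 1.79 ± 0.50 (SE, 3.45-fold, adjusted p = 0.181, limma), and STZ+MENS differed from STZ by -1.56 ± 0.50 (adjusted p = 0.129, limma). The STZ+MENS difference from Control was 0.22 ± 0.50 (adjusted p = 0.858, limma).

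Acot4, a peroxisomal enzyme that in the mouse splits succinyl-CoA and other dicarboxylic acyl-CoA, had mean intensities of 1328 and 2139 in the STZ+MENS samples, 3439 and 4231 in the STZ samples and 2199 and 1910 in the Control samples. Its STZ arrays did not overlap those of either other group, while STZ+MENS and Control overlapped. The log2 difference was 0.88 ± 0.25 between STZ and Control (SE, 1.84-fold, adjusted p = 0.183, limma) and -1.15 ± 0.25 between STZ+MENS and STZ (2.23-fold lower, adjusted p = 0.0722, limma). Between STZ+MENS and Control it was -0.27 ± 0.25 (adjusted p = 0.624, limma).

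Taking each gene's log2 difference of STZ from Control as the whole, the STZ+MENS difference from Control came to 67.7% of it for Acot1, 30.6% for Acot2, 12.5% for Acot3 and -31.0% for Acot4. Both differences share the Control samples, so these shares are given as a description. Their order depended on the STZ+MENS sample: without sample 1 the STZ+MENS minus Control difference was 1.86 for Acot1, 0.76 for Acot2, 1.06 for Acot3 and 0.060 for Acot4, and without sample 2 it was 1.39, 0.29, -0.62 and -0.61. Within the arrays, the log2 signal of the Acot1 probe minus that of the Acot2 probe was 2.77 and 2.78 in the STZ+MENS samples, 2.36 and 2.38 in the STZ samples and 1.63 and 1.72 in the Control samples. The gap widened without overlap between the groups, which shows that the signals of these probes changed unequally and not which RNA was more abundant.

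**Figure D2:**
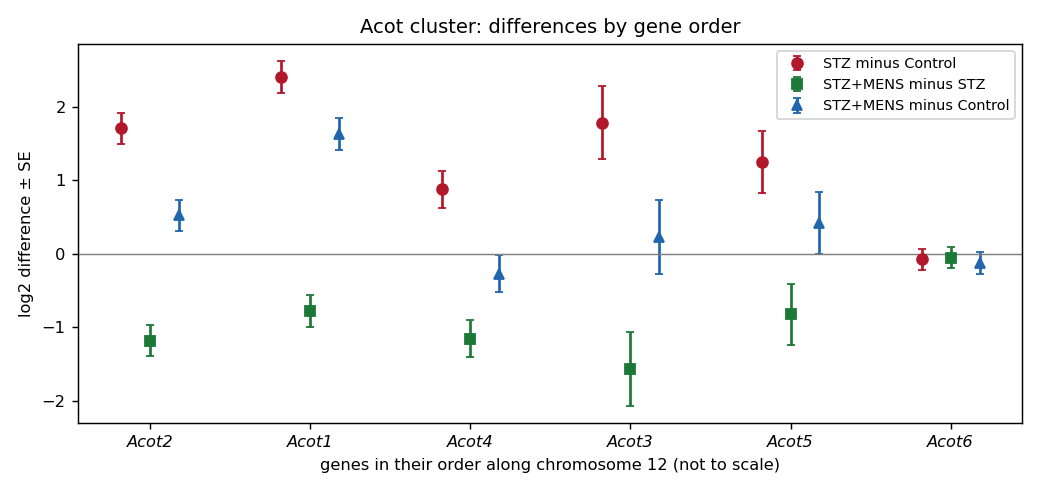
Log2 difference with its standard error (vertical axis) for the 6 genes of the cluster in their order along chromosome 12 (horizontal axis, not to scale); circles are STZ minus Control, squares STZ+MENS minus STZ and triangles STZ+MENS minus Control. Acot1 keeps the highest STZ+MENS minus Control value, 1.63, and Acot6 lies near 0 in all 3 comparisons.

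Acot5 and Acot6, the other peroxisomal genes of the cluster, were dim. Acot5 had mean intensities of 209 and 432 in the STZ+MENS samples, 618 and 514 in the STZ samples and 368 and 160 in the Control samples. Its log2 difference was 1.25 ± 0.42 between STZ and Control (SE, adjusted p = 0.225, limma) and -0.83 ± 0.42 between STZ+MENS and STZ. Acot6 had 134 and 159 in the STZ+MENS samples, 165 and 143 in the STZ samples and 158 and 171 in the Control samples, with log2 differences of -0.08, -0.05 and -0.13 (STZ against Control, STZ+MENS against STZ, STZ+MENS against Control).

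Acot7, a cytosolic long-chain acyl-CoA thioesterase best known from brain, had mean intensities of 46410 and 42383 in the STZ+MENS samples, 34060 and 33737 in the STZ samples and 32602 and 40789 in the Control samples by its brighter probe. On that probe every STZ+MENS array exceeded every STZ array. The Control samples lay apart from each other, one just below the STZ values and the other above them. The log2 difference was -0.11 ± 0.16 between STZ and Control (SE, adjusted p = 0.789, limma) and 0.38 ± 0.16 between STZ+MENS and STZ (adjusted p = 0.205, limma). Between STZ+MENS and Control it was 0.28 ± 0.16 (adjusted p = 0.421, limma). The second probe of Acot7 gave differences of -0.28 ± 0.14, 0.41 ± 0.14 and 0.13 ± 0.14 for the same comparisons, with the same signs. On the second probe the STZ+MENS and STZ arrays overlapped. The arrays of STZ+MENS sample 2 read 12382 and 19996 there, and an STZ array read 13636. The platform annotation names the brighter probe by an older symbol that RefSeq lists as a synonym of Acot7.

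Acot8, a peroxisomal thioesterase of wide substrate range that also acts on bile acid CoA esters, had mean intensities of 12351 and 14915 in the STZ+MENS samples, 14370 and 12179 in the STZ samples and 12107 and 12040 in the Control samples. Its arrays overlapped in all 3 comparisons, and the log2 differences were 0.13 ± 0.16 between STZ and Control, 0.03 ± 0.16 between STZ+MENS and STZ and 0.16 ± 0.16 between STZ+MENS and Control (SE). Acot12, a cytosolic thioesterase that splits acetyl-CoA, had 22103 and 17462 in the STZ+MENS samples, 19299 and 22824 in the STZ samples and 20217 and 15633 in the Control samples. Its differences were 0.24 ± 0.20, -0.10 ± 0.20 and 0.14 ± 0.20 in the same order, each within its error or close to it.

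Acot13, a small thioesterase found with mitochondria that binds the phosphatidylcholine transfer protein Pctp, had mean intensities of 29272 and 27005 in the STZ+MENS samples, 25301 and 23311 in the STZ samples and 23783 and 21172 in the Control samples. Both STZ+MENS sample means were above all others, but arrays overlapped between every pair of groups. The log2 differences were 0.11 ± 0.15 between STZ and Control, 0.20 ± 0.15 between STZ+MENS and STZ and 0.31 ± 0.15 between STZ+MENS and Control (SE, adjusted p = 0.324, limma). For Acot8, Acot12 and Acot13 the 95% intervals of all 3 differences lay between -0.59 and 0.74 on the log2 scale, so differences as large as that of Acot1 between STZ and Control fall outside them.

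**Figure D3:**
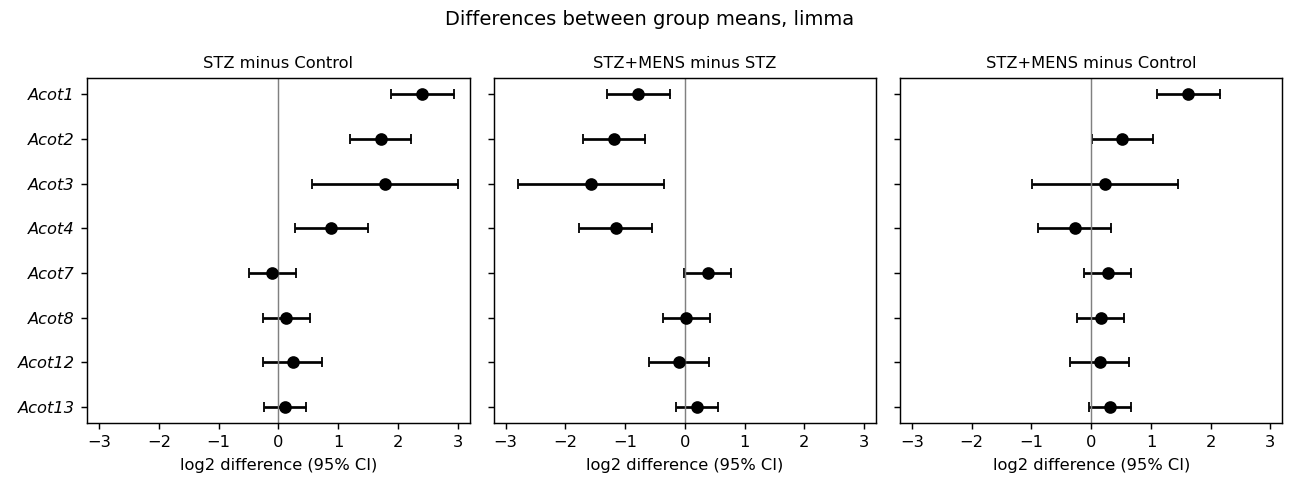
Log2 difference between group means (horizontal axis, limma, with 95% confidence intervals as bars) for the 8 members from Acot1 at the top to Acot13 at the bottom, in the 3 comparisons. The intervals of Acot1 to Acot4 lie to the right of 0 in STZ minus Control and to the left of 0 in STZ+MENS minus STZ.

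Counted over the family, 4 of 8 members were higher in STZ than in Control at an unadjusted p under 0.05 and 0 were lower, beside 8.48% of all genes higher and 8.49% lower. Their median log2 difference was 0.56, against -0.02 over all genes. Between STZ+MENS and STZ, 4 of 8 were lower and 0 higher, beside 12.8% of all genes lower and 12.6% higher, with a median of -0.44 against 0.06 over all genes. Between STZ+MENS and Control, Acot1 and Acot2 were higher and 0 were lower, beside 8.82% of genes higher and 9.18% lower, with a median of 0.25 against 0.02. Since the members were selected with such results known, these counts are no independent evidence about the family.

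At a difference of 2-fold or more, Acot1, Acot2 and Acot3 were higher in STZ than in Control and 0 members were lower, beside 2.13% and 1.16% of all genes. Acot2, Acot3 and Acot4 were lower by that much in STZ+MENS than in STZ and 0 were higher, beside 3.84% and 1.26% of genes. Acot1 was higher by that much in STZ+MENS than in Control and 0 were lower, beside 1.27% and 2.19% of genes. Sample means that did not overlap were common among all genes. In STZ against Control, 5 of 8 members were higher without overlap (24% of genes) and 0 lower (28.2%). In STZ+MENS against STZ, 4 were lower without overlap (23.9% of genes) and 2, Acot7 and Acot13, higher (34%), and in STZ+MENS against Control 5 were higher (25.6%) and 0 lower (23%).

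The STZ+MENS samples differed from each other, and the differences from STZ moved with them. Without STZ+MENS sample 1, the log2 difference between STZ+MENS and STZ was -0.54 for Acot1, -0.95 for Acot2, -0.72 for Acot3 and -0.82 for Acot4 (adjusted p from 0.154 to 0.297, limma). Without sample 2 it was -1.01, -1.42, -2.41 and -1.49 for the same genes, with adjusted p of 0.0467, 0.0253, 0.0166 and 0.0237 (limma), the remaining sample being assumed to vary like the other groups. Over the 19 alternatives, the lowest adjusted p between STZ+MENS and STZ was 0.0119 for Acot1, 0.00217 for Acot2, 0.0164 for Acot3 and 0.00602 for Acot4 (limma). All 4 came from the 12 arrays with the sample as a random block, which counts repeat arrays of a sample toward the degrees of freedom. A fit of STZ+MENS and STZ alone gave 0.182, 0.143, 0.208 and 0.148 for the same genes (limma).

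Markers of liver cells also differed between these groups, and their part in the member differences was not tested. In bulk liver, fewer cells of a type and less RNA per cell cannot be told apart. Apob, the apolipoprotein of very-low-density lipoprotein, had mean intensities of 19071 and 61112 in the STZ+MENS samples, 177135 and 118440 in the STZ samples and 162288 and 156980 in the Control samples. Tat and Cps1, enzymes of tyrosine breakdown and of the urea cycle, were lower in both STZ+MENS samples than in every STZ sample as well. These 3 of 7 hepatocyte markers were lower in STZ+MENS than in STZ at an unadjusted p under 0.05, beside 12.8% of all genes. The other hepatocyte markers did not pass, with STZ+MENS minus STZ differences of -0.13 for Alb, 0.17 for Ttr, 0.28 for Apoa1 and 0.26 for Fgb. Bile duct markers (6 of 6 measured) summed to 4730 and 7253 in the STZ+MENS samples, 7006 and 6684 in the STZ samples and 4640 and 3776 in the Control samples. Of these 6, Krt19, Tspan8 and Anxa13 were higher in STZ than in Control at an unadjusted p under 0.05, beside 8.48% of all genes. The other 3, Krt7, Epcam and Sox9, did not pass. Their mean intensities were 2442, 861 and 353 in STZ and 1990, 818 and 346 in Control. Adipocyte markers (7 of 8 measured), whose source tissue also expresses thioesterases, summed to 4348 to 4392 in STZ+MENS, 4207 to 4210 in STZ and 3930 to 4375 in Control. Pancreas markers (5 of 6 measured) summed to 17623 and 22080 in the STZ+MENS samples, 24034 and 20016 in the STZ samples and 42733 and 42752 in the Control samples, most of it Cela1. None of the listed markers was at or below 0 on these arrays.

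Other thioesterases and related acyltransferases (13 of 17 listed genes were measured) gave 3 higher and 0 lower in STZ than in Control at an unadjusted p under 0.05. Among all genes 8.48% were higher and 8.49% lower, and the list's median log2 difference was 0.05. Between STZ+MENS and STZ, 2 of the list were higher and 1 was lower, beside 12.6% and 12.8% of all genes, with a median of -0.24. Them5, a mitochondrial thioesterase, had mean intensities of 1492 and 3468 in the STZ+MENS samples, 3167 and 3810 in the STZ samples and 859 and 931 in the Control samples. Its STZ minus Control difference was 1.90 ± 0.37 (SE, adjusted p = 0.121, limma), and its STZ+MENS samples overlapped the STZ samples. Acnat2, a relative of the enzyme that joins bile acids to amino acids, was above Control in STZ by 1.48 ± 0.37 (adjusted p = 0.158, limma). Ppt2, a lysosomal thioesterase, was above STZ in STZ+MENS by 0.43 ± 0.14 (adjusted p = 0.129, limma).

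The synthetases that make acyl-CoA did not share a direction. Of 19 acyl-CoA synthetases, 3 were higher and 5 lower in STZ than in Control at an unadjusted p under 0.05 (median log2 difference -0.07). The shares over all genes were 8.48% and 8.49%. In STZ+MENS against STZ, 2 were higher and 4 lower (median 0.15), beside 12.6% and 12.8% of all genes. Acsm2, a medium-chain synthetase, had mean intensities of 1632 and 1544 in the STZ+MENS samples, 1313 and 1248 in the STZ samples and 2301 and 2362 in the Control samples, a STZ minus Control difference of -0.84 ± 0.13 (SE, adjusted p = 0.0984, limma). Acsm1, a mitochondrial medium-chain synthetase, was also below Control in STZ, by -0.66 ± 0.15 on the log2 scale. Acsf2, another mitochondrial synthetase, had 74428 and 52324 in the STZ+MENS samples, 30494 and 25897 in the STZ samples and 29578 and 33837 in the Control samples. It stood above both other groups in STZ+MENS, with a difference from STZ of 1.15 ± 0.21 (adjusted p = 0.0631, limma).

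PPARalpha targets that are not thioesterases (28 of 34 measured) gave 12 higher and 1 lower in STZ than in Control at an unadjusted p under 0.05. The shares over all genes were 8.48% and 8.49%, and the list's median log2 difference was 0.35. In STZ+MENS against STZ, 3 were higher and 8 lower (median -0.20), beside 12.6% and 12.8% of all genes. The 3 higher were Aldh3a2, Fads2 and Fgf21, with log2 differences of 1.33, 0.70 and 0.52. Ehhadh, the peroxisomal enzyme that carries out consecutive steps of fatty acid oxidation, had mean intensities of 8544 and 12445 in the STZ+MENS samples, 49204 and 41513 in the STZ samples and 25609 and 20074 in the Control samples. STZ+MENS was below both other groups, and its log2 difference from STZ was -2.14 ± 0.23 (SE, adjusted p = 0.0573, limma). Acadl, the long-chain acyl-CoA dehydrogenase of mitochondria, differed by -0.71 ± 0.13 between STZ+MENS and STZ (adjusted p = 0.0614, limma). Slc22a5, the carnitine transporter, had 530 and 564 in the STZ+MENS samples, 1382 and 1287 in the STZ samples and 591 and 503 in the Control samples. Its STZ samples alone were high, with a STZ minus Control difference of 1.21 ± 0.15 (adjusted p = 0.0674, limma). Ppara itself, which encodes the receptor, had 66017 and 53714 in the STZ+MENS samples, 43867 and 52847 in the STZ samples and 45474 and 43563 in the Control samples. Its log2 difference was 0.11 between STZ and Control and 0.31 between STZ+MENS and STZ. These are RNA levels, and any part of the receptor in the member differences was not tested.

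**Figure D4:**
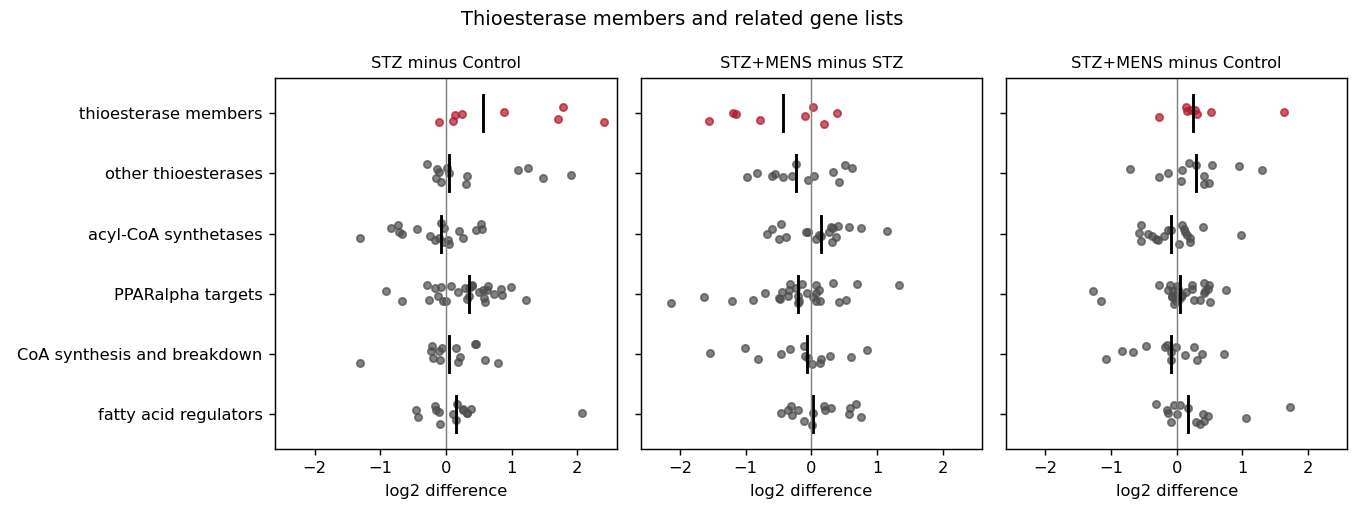
Log2 differences (horizontal axis) of the 8 members and of the measured genes of 5 related lists, 1 point per gene and a bar at each list's median, in the 3 comparisons; vertical position within a row only spreads the points. The members' median is 0.56 in STZ minus Control and -0.44 in STZ+MENS minus STZ, and points of all 6 rows, the members included, lie on both sides of 0 in each comparison.

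Genes of CoA synthesis and breakdown (14 of 15 measured) gave 1 higher and 1 lower in STZ than in Control at an unadjusted p under 0.05. In STZ+MENS against STZ, 2 were higher and 2 lower. These counts were close to the shares over all genes, 8.48% and 8.49%, then 12.6% and 12.8%. Nudt7, which breaks down CoA in peroxisomes, had mean intensities of 160605 and 113400 in the STZ+MENS samples, 70128 and 79047 in the STZ samples and 195162 and 173501 in the Control samples. The sample means of the groups did not overlap, with STZ below Control by a log2 difference of -1.30 ± 0.21 (SE, adjusted p = 0.101, limma). Pank1, a pantothenate kinase at the first step of CoA synthesis, had 3134 and 6722 in the STZ+MENS samples, 14984 and 11871 in the STZ samples and 9664 and 9720 in the Control samples. Its STZ+MENS minus STZ difference was -1.54 ± 0.34 (adjusted p = 0.0739, limma), and that of the mitochondrial carrier Slc25a16 was -1.01 ± 0.25 (adjusted p = 0.0866, limma).

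A list of 15 genes held regulators of fatty acid metabolism and, beside them, the transfer protein Pctp. In STZ against Control, 1 was higher, Pctp itself, and 2 were lower at an unadjusted p under 0.05, beside 8.48% and 8.49% of all genes. In STZ+MENS against STZ, 4 were higher and 0 lower, beside 12.6% and 12.8% of all genes. Pctp, the partner of Acot13, had mean intensities of 5635 and 18395 in the STZ+MENS samples, 13862 and 12149 in the STZ samples and 3651 and 2509 in the Control samples. Its STZ minus Control difference was 2.08 ± 0.52 (SE, adjusted p = 0.158, limma), and its STZ+MENS samples lay on both sides of STZ. Nr1h4, the bile acid receptor FXR, was above STZ in STZ+MENS by 0.75 ± 0.16 (adjusted p = 0.0699, limma), and Nr0b2, a repressor it induces, by 0.59 ± 0.17 (adjusted p = 0.106, limma).

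The genes whose pattern over the 6 samples was most like that of Acot1, among 3903 genes with enough signal and range, were Junb, Zcwpw1, Reep4, Slf1 and Slc47a1. Their Pearson r with Acot1 ran from 0.984 to 0.991 over the 6 sample means, which share arrays and fall into 3 groups, so r mostly restates the order of the groups and is given as a description. Junb, a subunit of the transcription factor AP-1, had log2 levels of 13.13 and 13.18 in the STZ+MENS samples, 13.60 and 13.76 in the STZ samples and 12.03 and 12.02 in the Control samples. Slc47a1, a transporter that exports organic cations, had 11.81 and 12.15 in the STZ+MENS samples, 12.51 and 12.44 in the STZ samples and 11.21 and 11.28 in the Control samples. In both, as in Acot1, STZ+MENS lay between STZ and Control. Them5 ranked 21 on this measure. The neighbouring members ranked 88 (Acot2), 435 (Acot3) and 749 (Acot4), with r of 0.914, 0.744 and 0.583.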

How the data were processed

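The labels describe TRIzol extraction, integrity and absorbance checks, amino allyl amplification and Cy5 labelling. The authors deposited linear probe intensities, with array medians of 768.89 to 770.33 and 44 to 52 values below 0 per array, a pattern that background subtraction and between-array normalization would give. With the lowest 1000 values left out, the sorted values differed between arrays by at most 6.31% of their mean, so the arrays shared nearly the same distribution. How that was reached, and whether background was subtracted, is not given in the sources used here. The submitters' processing notes name limma 3.30.7 but not what it was used for. The platform annotation gave 1 symbol to 20377 of 26423 probes, several to 0 and none to 6046. Through RefSeq's GRCm38.p6 gene list, 18213 of these symbols were current, 2126 were replaced as synonyms and 38 were kept as given. Promoter windows are RefSeq's, matched for 7 of 8 members.

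Negative values were raised to 0 and log2(intensity + 50) was taken, which understates changes of dim genes. The brightest probe per gene was kept, both arrays of a sample were averaged, and limma 3.58.1 in R 4.3.3 fitted a mean per group to 6 samples (3 residual and 3.19 prior degrees of freedom). Tests were two-sided, with Benjamini-Hochberg adjustment over 17742 genes and a threshold of 0.05. Precision is limited by the number of samples, 2 per group, and the 2 arrays of a sample are repeat runs of it. Values were read with pandas 2.3.3 and version 1.17.8 of data.table, and plots drawn with matplotlib 3.10.9 in Python 3.11.15. All 8 members are named. From each related list, the 3 genes without overlap that had the smallest unadjusted p in STZ against Control or in STZ+MENS against STZ were named; STZ+MENS against Control was not used for naming. The 5 genes most like Acot1 had a mean log2 level of at least 7 and a range of at least 1, predicted genes left out. Acot5, Acot6, Ppara, Aldh3a2, Fads2, Fgf21 and the marker genes were named after their values were seen. Members and lists were chosen with earlier results of these data known. The 19 alternatives covered offset, scaling, probe choice, dim-gene filter, array handling, blocks and leaving out samples.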

Additional observations from a re-analysis of the deposited data

How the results depend on the processing

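No member passed the adjusted threshold as reported, and the count of members passing depended on how arrays and groups entered the fit. With the 12 arrays and the sample as a random block, 4 members (Acot1 to Acot4) passed in STZ against Control among 1204 genes, 4 in STZ+MENS against STZ among 3079 and 1 (Acot1) in STZ+MENS against Control among 1336; fits over arrays count them toward the degrees of freedom. A replicate block on array number over the 12 arrays gave 4, 4 and 1 members among 1024, 2741 and 1051 genes. Fitting STZ and Control alone called 3 members, Acot1, Acot2 and Acot3, among 181 genes. Leaving out 1 sample gave 0 to 3 members in STZ against Control, 3 without either STZ+MENS sample (the lone sample left adds no residual spread, so this equals the fit of STZ and Control alone), and 0 to 4 in STZ+MENS against STZ, 4 without STZ+MENS sample 2, among 1759 genes. As reported, 1, 0 and 1 genes were called in the 3 comparisons. The cause of the single-sample changes was not tested. The sample numbers used here are the order within a group, not the labels' own numbers, and were not taken to pair samples. Deviations of same-numbered samples correlated at -0.07, -0.03 and 0.005. Because the numbering is arbitrary across groups, these values cannot show whether samples were paired. A replicate block on sample number called 0 members in each comparison.

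Acot1 to Acot4 kept their direction in STZ against Control and in STZ+MENS against STZ under all 19 alternatives. Signs turned for Acot7, Acot8 and Acot12 and, between STZ+MENS and Control, for Acot3 and Acot4. With 1 sample left out, Acot7 in STZ against Control ran from -0.27 to 0.056, above 0 without Control sample 2. Acot8 in STZ+MENS against STZ was -0.069 with the first array of each sample alone, -0.103 without STZ+MENS sample 2 and -0.091 without STZ sample 2, and reached 0.156 without STZ+MENS sample 1. Acot12 there was 0.074 and 0.026 without the same pair of samples and -0.27 at its lowest. Against Control in STZ+MENS, Acot3 was -0.62 without STZ+MENS sample 2 and 1.06 without sample 1, and Acot4 was 0.060 without sample 1 and -0.61 without sample 2. Acot12 there was -0.026 without STZ+MENS sample 1, -0.042 without Control sample 2 and 0.33 at its highest. The cause was not tested.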
